A study of Mus musculus with 2 samples.

Results

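The dystrophin glycoprotein complex was followed here through 8 of its genes, chosen by name: Dmd, Utrn, Dag1, Sgca, Sgcb, Sgcd, Sntb1 and Dtna. All 8 symbols named a row in both deposited matrices, which hold 32285 gene rows each. In nuclei of tibialis anterior, a fast muscle of the lower hind limb, Dmd, the longest of these genes, gave 2.35% of all transcript counts of muscle fibre nuclei in the WT-labelled library and 2.63% in the KO-labelled library, counts into which gene length enters. Dmd, Utrn and Sgcd stood higher in nuclei of the myotendinous junction than in other fibre nuclei of both libraries, and Utrn stood higher again in a small cluster of synaptic nuclei. Outside the fibres, Utrn was above its fibre level in all 6 classes of at least 50 nuclei, Dag1 was highest in muscle stem cells and Sntb1 in pericytes or smooth muscle. Between the libraries, Dag1 and Dtna differed by more than 1.5-fold over all fibre nuclei (Dtna by less when levels were averaged over nuclei), and Utrn by more than 3-fold in the nuclei whose main myosin gene was Myh4.

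The complex links the actin cytoskeleton beneath the fibre membrane to laminin outside it. Dystrophin binds actin and the cytoplasmic tail of beta-dystroglycan, alpha-dystroglycan binds laminin through its sugar chains, the sarcoglycans form a small membrane subcomplex that steadies this link, and the syntrophins and dystrobrevins hold signalling proteins at its inner face. Utrophin is an autosomal relative of dystrophin that in adult fibres is concentrated at the neuromuscular and myotendinous junctions, and loss of dystrophin or of a sarcoglycan causes muscular dystrophy.

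The 2 libraries are single-nucleus RNA sequencing of tibialis anterior from 6-week-old male mice on a C57BL/6 background, and each pooled the right and left muscles of 2 mice. The mice of the KO-labelled library carried Myf6-Cre and Bcl6 fl/fl alleles, and those of the WT-labelled library were littermates with Myf6-Cre and Bcl6 wt/wt, so both groups express Cre under the control of Myf6, a gene of the myogenic lineage. Nuclei had been sorted on the DNA dye 7-AAD before loading. With 1 library per genotype no difference between the libraries has a replicate check, the 2 mice of a library cannot be told apart, and the 95% intervals given below in brackets cover counting error only. The question is where in the muscle the genes of the complex are read and whether the library of mice meant to lack the transcriptional repressor BCL6 in their fibres differs from the other.

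The deposited matrices held 3798 nuclei and 11974138 UMIs (unique molecular identifiers, each marking 1 captured RNA molecule) for the WT-labelled library, and 4096 nuclei and 12026013 UMIs for the KO-labelled library. After filters, 3674 and 3944 nuclei remained, with medians of 2550.5 and 2473 UMIs, and the libraries shared 6 cell barcodes. Fibre nuclei, called myonuclei, were 2407 in the WT-labelled library, with a median of 3127 UMIs, and 3085 in the KO-labelled library, with a median of 2706. All 9 myonuclear marker genes were detected in both, Ttn being the most abundant, and their summed level was 74118 CPM (counts per 1e+06 UMIs of the group) in the WT-labelled library and 87309 CPM in the KO-labelled library. The classes did not rest on the complex, since its 8 genes were kept out of the clustering and out of the marker lists.

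Bcl6 itself went against the label. In myonuclei it stood at 167 CPM (1475 UMIs) in the WT-labelled library and at 502 CPM (4829 UMIs) in the KO-labelled library, a log2 ratio of 1.59. The counts are summed per gene and do not say which Bcl6 exons were read. RNA without the floxed exons may still be counted, which was not tested, so this value does not check the deletion. Each library is therefore named by its label only.

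Dmd lies on chromosome X from 82948870 to 85206141 on the forward strand (mm10, gene limits of GENCODE M21) and spans 2257 kb. Utrn lies on chromosome 10 from 12382188 to 12869365, Dag1 on chromosome 9 from 108204634 to 108263958, Sgcb on chromosome 5 from 73632749 to 73647790 and Sntb1 on chromosome 15 from 55636388 to 55906949, all on the reverse strand. Sgca and Sgcd share chromosome 11, from 94962791 to 94976327 and from 46896253 to 47988969, also on the reverse strand. None of the 8 overlaps another annotated gene of its own strand.

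The counts are summed per gene and do not tell which start a Dmd molecule came from, and the stretches before the 2 Dmd starts in the RefSeq table (GRCm38.p6) are therefore shown, together with that before the upstream one of the 2 Dag1 starts, Dag1 being the member with the largest difference between the libraries over all myonuclei. Each stretch is the 250 bases before the start, 5′ to 3′ on the strand of the gene, and capitals mark matches to CANNTG, the E-box letters bound by myogenic factors. The stretch before the other Dag1 start (chr9:108263816-108264065) overlaps a Dag1 exon and holds 1 match, and it is not printed. The 3 shown lie at chrX:82948620-82948869, chrX:85048045-85048294 and chr9:108263959-108264208.
Dmd, first start: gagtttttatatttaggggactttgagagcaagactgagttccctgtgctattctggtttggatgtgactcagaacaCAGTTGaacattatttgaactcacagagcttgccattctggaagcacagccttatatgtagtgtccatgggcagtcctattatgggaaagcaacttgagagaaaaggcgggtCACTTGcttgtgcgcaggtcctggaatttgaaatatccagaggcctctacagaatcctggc
Dmd, second start: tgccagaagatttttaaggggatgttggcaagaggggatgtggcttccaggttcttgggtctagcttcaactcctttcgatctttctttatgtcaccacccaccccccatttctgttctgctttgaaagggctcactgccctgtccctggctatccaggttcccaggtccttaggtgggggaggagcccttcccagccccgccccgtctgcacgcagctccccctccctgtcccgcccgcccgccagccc
Dag1: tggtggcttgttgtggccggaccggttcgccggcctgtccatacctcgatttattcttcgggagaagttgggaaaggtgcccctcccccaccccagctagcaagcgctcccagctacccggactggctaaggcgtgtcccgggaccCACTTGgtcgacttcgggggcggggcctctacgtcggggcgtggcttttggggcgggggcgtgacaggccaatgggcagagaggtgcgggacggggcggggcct
The first Dmd stretch holds 2 matches, which begin 173 and 61 bases before the start, the second holds none, and the Dag1 stretch holds 1, beginning 104 bases before the start. The table gave 8 such stretches for 6 members. CANNTG, read on either strand, occurs in 66.2% of all 32851 stretches of this length in the table, TTCNNNGAA, the core letters shared by BCL6 and STAT sites, in 7.02%, and a MEF2-type box in 3.20%. Neither of the last 2 occurs in any of the 8 stretches of the members, which says only that these letters are not in these windows.

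Dmd was among the most counted genes of the muscle fibre. In myonuclei it stood at 23504 CPM [23403 to 23605] in the WT-labelled library and 26289 CPM [26187 to 26392] in the KO-labelled library, place 3 in UMI count among the 18668 and 19062 genes with a UMI. Dmd made up 90.8% and 88.3% of the UMIs of the 8 members, shares and a place that are not corrected for gene length, and 2402 of 2407 and 3077 of 3085 myonuclei held at least 1 Dmd UMI. A typical myonucleus gave 2.24% of its UMIs to Dmd in the WT-labelled library and 2.49% in the KO-labelled library (medians over nuclei). Utrn stood at 90.7 and 134 CPM in the WT-labelled and KO-labelled libraries, and Dag1, which encodes both dystroglycan subunits, at 339 and 567 CPM. Of the sarcoglycans, Sgca (alpha) stood at 61.3 and 53.7 CPM, Sgcb (beta) at 58.9 and 62.0 CPM and Sgcd (delta) at 967 and 1370 CPM. Sntb1, which encodes beta1-syntrophin, stood at 59.6 and 71.8 CPM, and Dtna, which encodes alpha-dystrobrevin, at 813 and 1241 CPM.

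Nuclear RNA is rich in unspliced transcripts, so a long gene can offer more priming sites, and the members are put in order of level per kilobase of gene. On that scale Dmd led with 10.4 and 11.6 CPM per kb in the WT-labelled and KO-labelled libraries. Dag1 came next with 5.71 and 9.56 CPM per kb, followed by Sgca with 4.52 and 3.97, Sgcb with 3.91 and 4.12, and Dtna with 3.32 and 5.07 CPM per kb. Sgca and Sgcb thus lay between Dag1 and Dtna per kilobase in the WT-labelled library and below both in the KO-labelled library, and Sgcd, a gene of 1093 kb, gave 0.885 and 1.25 CPM per kb. Sntb1 with 0.220 and 0.265 CPM per kb and Utrn with 0.186 and 0.275 CPM per kb were the lowest of the 8, and their order differed between the libraries.

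**Figure D1:**
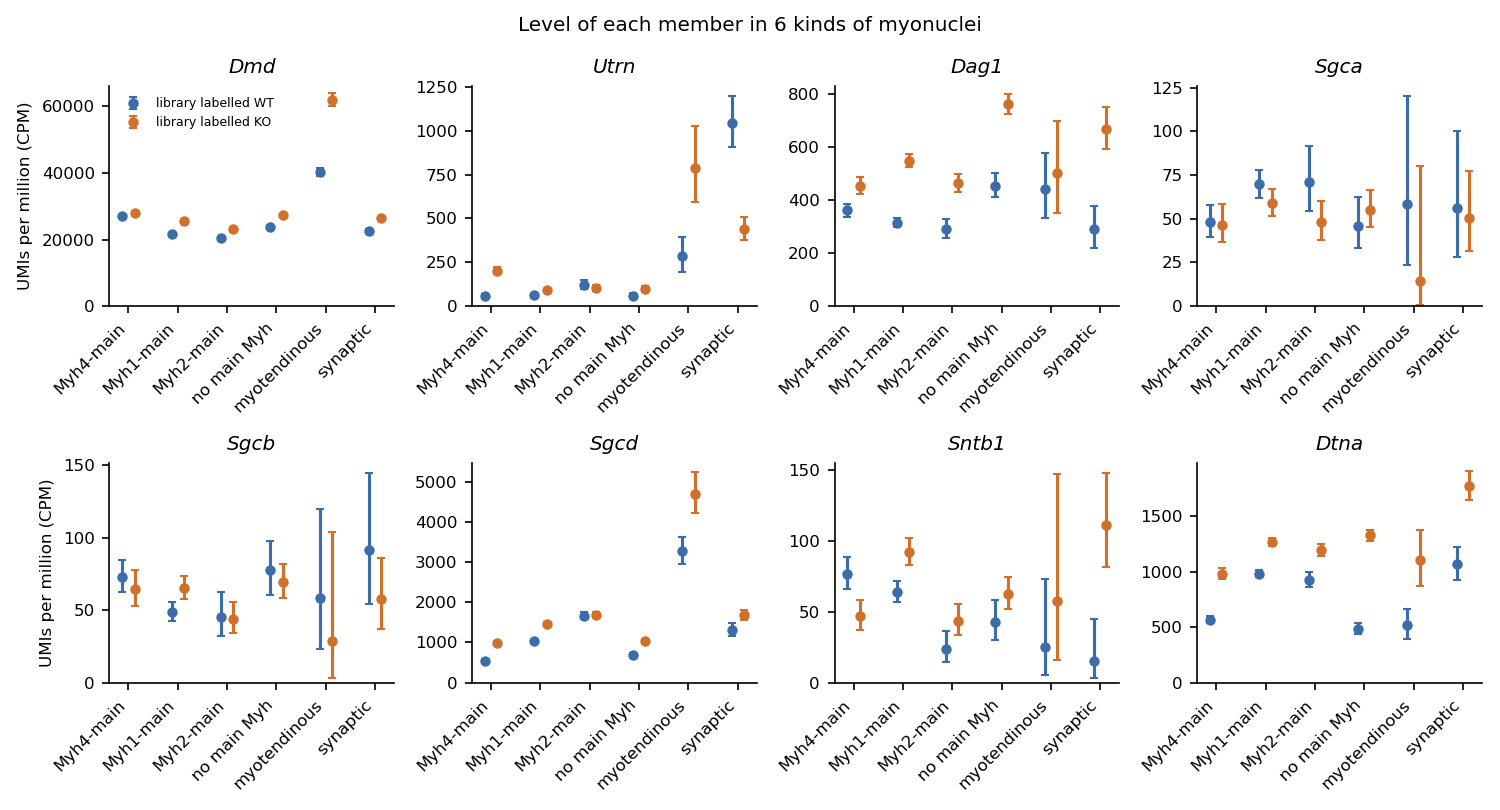
Level of each member in CPM (vertical axis from 0, scale differing between panels) in 6 kinds of myonuclei of the WT-labelled library (blue) and the KO-labelled library (orange). Points are sums over nuclei and bars are exact 95% Poisson intervals for counting error; Dmd and Sgcd are highest in the myotendinous nuclei of both libraries, where Dmd reaches 40218 and 62059 CPM.

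Between the libraries, 2 of the 8 members were past 1.5-fold in myonuclei, Dag1 and Dtna, both higher in the KO-labelled library. With TMM or median-of-ratios scaling of the libraries 4 were, Utrn and Sgcd being added. With CPM averaged over nuclei instead of summed, Dtna gave a log2 ratio of 0.58 and was not past 1.5-fold. Among 6975 genes whose myonuclear UMIs summed to 200 or more over the libraries, 16.6% were past 1.5-fold either way and 6.8% were that much higher, and the median log2 ratio of labelled KO over labelled WT was -0.15. The median over the 8 members was 0.39. Of the 8, 7 had a ratio above that of the median gene and 1, Sgca, was close to it.

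Of the proteins that bind actin, dystrophin differed little in RNA level between the libraries over all myonuclei and utrophin more. Dmd gave a log2 ratio of 0.16 [0.15 to 0.17], narrow in counting error because it rests on 207587 and 252954 UMIs, and Utrn gave 0.56 [0.43 to 0.69] from 801 and 1288 UMIs, a 1.48-fold difference. In the few junctional nuclei described below Dmd was past 1.5-fold, at 0.63 [0.57 to 0.69] in myotendinous nuclei and 0.73 [0.53 to 0.93] in the synaptic cluster. In synaptic nuclei chosen by marker count it gave 0.23 [0.18 to 0.28]. Utrn was read in 6.68% of myonuclei of the WT-labelled library and 10.4% of those labelled KO after random thinning of every nucleus to a depth of 1000 UMIs (26 and 75 shallower nuclei were not used), and in 17.0% and 22.3% without thinning. Ttn, read as a check, was found in 2381 of 2381 and 3009 of 3010 of the thinned nuclei.

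Dag1 had the largest difference between the libraries over all myonuclei, a log2 ratio of 0.74 [0.68 to 0.81] from 2994 and 5459 UMIs. It was found in 26.5% and 39.1% of thinned myonuclei of the WT-labelled and KO-labelled libraries. Among the sarcoglycans, Sgcd gave 0.50 [0.46 to 0.54], whereas Sgca gave -0.19 [-0.37 to -0.01] and Sgcb 0.08 [-0.10 to 0.25]. The 3 sarcoglycan genes therefore did not differ alike between the libraries. At the inner face, Dtna gave 0.61 [0.57 to 0.65] and Sntb1 0.27 [0.10 to 0.44]. Outside the cluster led by Col22a1, described below, Sntb1 gave 0.14 [-0.03 to 0.31], an interval that includes no difference.

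The make-up of the myonuclei also differed between the libraries. Each myonucleus outside the myotendinous and synaptic groups described below was placed by the myosin heavy chain gene with most UMIs in it, among Myh4 (the fastest fibres, type IIb), Myh1 (IIx), Myh2 (IIa) and Myh7 (slow). Myh4-main nuclei were 674 in the WT-labelled library and 593 in the KO-labelled library, Myh1-main nuclei 1141 and 1153, Myh2-main nuclei 231 and 455, and nuclei with no main Myh gene 299 and 762, with 1 and 17 Myh7-main nuclei. Median UMIs per nucleus and the summed myonuclear markers differed too, as given above, and the ratios of the members are therefore also given within fibre types and within clusters of myonuclei. Whether differences in make-up remain within them was not tested.

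Within fibre types the difference in Utrn was uneven. In Myh4-main nuclei Utrn stood at 57.5 CPM (136 UMIs) in the WT-labelled library and 201.5 CPM (332 UMIs) in the KO-labelled library, a log2 ratio of 1.81 [1.52 to 2.11], and 89 of 674 against 196 of 593 of these nuclei held a Utrn UMI. In Myh1-main nuclei Utrn stood at 61.3 and 90.2 CPM, a ratio of 0.56 [0.32 to 0.79], and in Myh2-main nuclei at 121.4 and 100.6 CPM, a ratio of -0.27 [-0.64 to 0.10]. The intervals of the Myh4-main and Myh2-main ratios did not overlap. No single nucleus set the Myh4-main value, since the nucleus with most Utrn UMIs held 7 of the 332 in the KO-labelled library and 8 of the 136 in the WT-labelled library. Leaving the synaptic nuclei out, Utrn stood at 69.0 and 120.1 CPM over all remaining myonuclei, a ratio of 0.80 [0.65 to 0.95], which is past 1.5-fold.

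Dag1 was higher in the KO-labelled library in each of the 3 large fibre types, with log2 ratios of 0.33 [0.19 to 0.47] in Myh4-main, 0.81 [0.71 to 0.91] in Myh1-main and 0.67 [0.46 to 0.88] in Myh2-main nuclei. Dtna was likewise higher in each, with ratios of 0.79 [0.68 to 0.89], 0.37 [0.31 to 0.43] and 0.37 [0.24 to 0.49]. In nuclei with no main Myh gene Dtna stood at 487 and 1327 CPM, a ratio of 1.45 [1.30 to 1.60]. Sgcd differed in Myh4-main nuclei, at 549 and 995 CPM with a ratio of 0.86 [0.75 to 0.97], and by 0.51 [0.45 to 0.56] in Myh1-main nuclei, but stood at 1665 and 1690 CPM in Myh2-main nuclei, where the ratio was 0.02 [-0.07 to 0.12]. Sntb1 gave -0.71 [-1.12 to -0.32] in Myh4-main and 0.53 [0.30 to 0.76] in Myh1-main nuclei, opposite in sign beyond counting error. Those intervals do not cover unevenness between nuclei. Sntb1 UMIs were found in 13.9% and 7.25% of Myh4-main nuclei of the WT-labelled and KO-labelled libraries. In Myh1-main nuclei the shares were 11.8% [10.0 to 13.8] and 13.3% [11.4 to 15.4], with overlapping intervals. After thinning, the intervals of the libraries overlapped in each of these types. Dmd lay between 0.05 and 0.23 in the 3 types.

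Within the 5 large clusters of myonuclei, each named here from its leading genes, the ratios were uneven as well. The clusters held 754 nuclei of the WT-labelled library and 841 of the KO-labelled library (led by Ppara and Ppargc1a), 535 and 736 (Myh7 and Myom3), 360 and 608 (Myh4 and Rian), 494 and 433 (Gpt2 and Pfkfb3) and 222 and 425 (Nr4a3 and Retreg1), so the cluster sizes differed between the libraries. The name Myh7-led does not mean slow fibres, since Myh2 is also among its leading genes and Myh7-main nuclei were only 1 and 17. In the Gpt2-led cluster Utrn stood at 21.3 CPM (39 UMIs) and 130 CPM (166 UMIs) in the WT-labelled and KO-labelled libraries, a log2 ratio of 2.61 [2.10 to 3.16]. In the Myh4-led cluster the ratio was 1.06 [0.72 to 1.41], in the Nr4a3-led 0.75 [0.21 to 1.32], in the Myh7-led 0.37 [0.14 to 0.60] and in the Ppara-led -0.08 [-0.43 to 0.27]. Utrn was thus past 1.5-fold in 3 of the 5 clusters and near 0 in the Ppara-led one.

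Dag1 was higher in the KO-labelled library in all 5 clusters, with log2 ratios from 0.28 [0.10 to 0.46] in the Myh7-led to 1.15 [0.97 to 1.32] in the Nr4a3-led cluster. Dtna was higher in all 5 too, from 0.14 [0.05 to 0.23] in the Myh7-led to 1.59 [1.47 to 1.71] in the Gpt2-led cluster. Sntb1 gave -1.10 [-1.78 to -0.43] in the Myh4-led and -0.65, with an upper bound of -0.30, in the Nr4a3-led cluster, but 0.69 [0.05 to 1.32] in the Gpt2-led and 0.54 [0.18 to 0.90] in the Ppara-led cluster. The sign of its ratio, from UMIs summed over nuclei, therefore differed between clusters as it did between fibre types. Dmd lay between 0.06 and 0.25 in the 5 clusters.

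**Figure D2:**
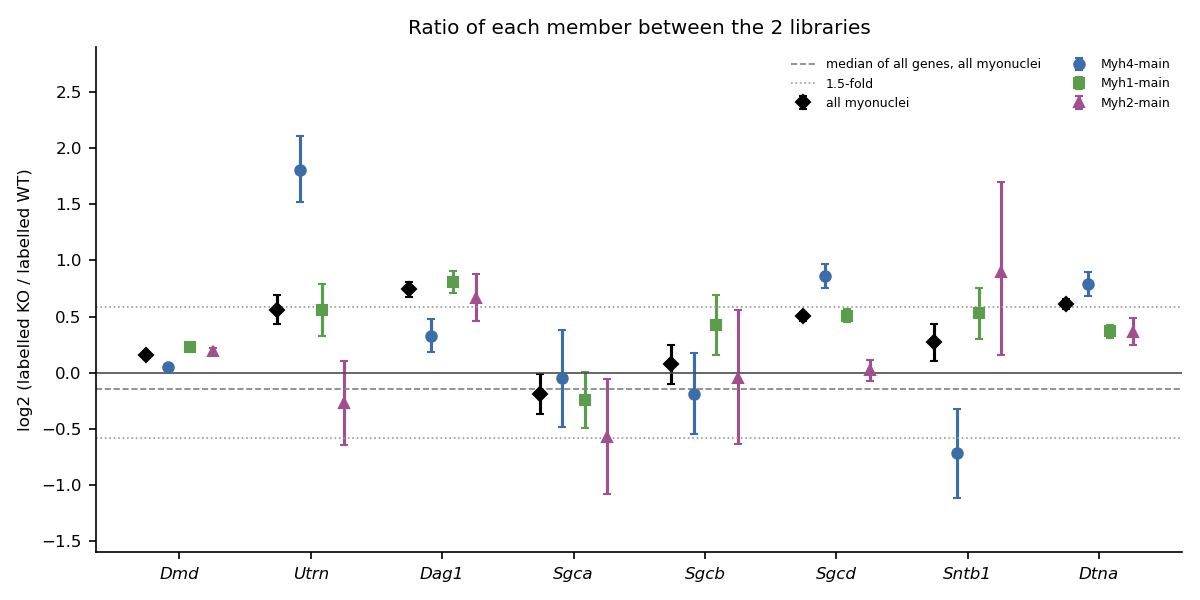
Log2 ratio of the KO-labelled library over the WT-labelled library (vertical axis) for each member over all myonuclei (black diamonds) and within Myh4-main, Myh1-main and Myh2-main nuclei. Bars are exact 95% intervals for counting error, the dashed line is the median of all genes in myonuclei (-0.15) and dotted lines mark 1.5-fold; Utrn in Myh4-main nuclei, at 1.81, stands farthest from 0.

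Between Myh4-main and Myh1-main nuclei 0 of 8 members were past 1.5-fold the same way in both libraries, against 17.7% of the 9779 genes tested. The nearest were Sgcd, at 549 CPM in Myh4-main and 1034 CPM in Myh1-main nuclei of the WT-labelled library and at 995 and 1470 CPM in the KO-labelled library (log2 ratios -0.91 and -0.56), and Dtna (log2 ratios -0.79 and -0.37). With a main Myh gene of at least 3 UMIs and at least 2 in 3 of the Myh UMIs, 2 of 8 were past 1.5-fold, against 19.2% of genes. With CPM averaged over nuclei 1 was, against 18.1%. Dmd was slightly higher in Myh4-main nuclei, by 0.32 [0.31 to 0.34] and 0.14 [0.12 to 0.15] in the WT-labelled and KO-labelled libraries. Utrn was 1.16 [0.94 to 1.38] higher in Myh4-main than in Myh1-main nuclei of the KO-labelled library and -0.09 [-0.40 to 0.21] in that labelled WT.

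Between Myh2-main and Myh1-main nuclei, 1 of 8 members was past 1.5-fold in both libraries, against 5.04% of the 8417 genes tested either way and 2.4% in the lower direction. It was Sntb1, which stood at 23.4 CPM (20 UMIs) in Myh2-main and 63.8 CPM in Myh1-main nuclei of the WT-labelled library, and at 43.4 CPM (66 UMIs) and 92.0 CPM in the KO-labelled library, with log2 ratios of -1.45 [-2.18 to -0.80] and -1.08 [-1.49 to -0.70]. These values rest on few nuclei, since Sntb1 UMIs were found in 3.46% of 231 and 6.81% of 455 Myh2-main nuclei. The shares of Myh1-main nuclei were 11.8% and 13.3%. Sgcd had its highest level of these 3 types in Myh2-main nuclei of both libraries, by 0.69 [0.60 to 0.77] and 0.20 [0.13 to 0.27] over Myh1-main. Dmd, Sgcd and Dtna had the same order of the 3 fibre types in both libraries, and the other 5 members did not. For Sgca and Sgcb the changed order rests on ratios whose intervals include no difference. Sgca in Myh2-main over Myh1-main nuclei gave 0.03 [-0.39 to 0.43] and -0.30 [-0.70 to 0.09]. Sgcb in Myh4-main over Myh1-main nuclei of the KO-labelled library gave -0.02 [-0.36 to 0.31]. Dag1 in Myh4-main over Myh1-main nuclei gave 0.20 [0.08 to 0.33] in the WT-labelled library and -0.27 [-0.39 to -0.15] in the KO-labelled library, opposite in sign beyond counting error, and Sntb1 gave 0.26 [-0.01 to 0.54] and -0.98 [-1.35 to -0.62].

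At the myotendinous junction, where fibres pass force to the tendon, 23 myonuclei of the WT-labelled library and 19 of the KO-labelled library held at least 3 UMIs of Col22a1, a collagen of that junction, and 17 of each also fell in the cluster led by Col22a1. The marker genes Ankrd1, Slc24a2, Adamts20 and Tigd4, which the rule did not use, were all higher in these nuclei than in the other myonuclei. Among the members 6 could be compared with the other myonuclei in both libraries, and 3 were past 1.5-fold in both, all higher: Dmd, Utrn and Sgcd. Of the 2196 genes tested, 28.5% were past 1.5-fold either way and 6.24% were that much higher.

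Dmd exceeded its level in other fibre nuclei. It stood at 40218 CPM (4832 UMIs) against 23273 CPM in the other myonuclei of the WT-labelled library, and at 62059 CPM (4325 UMIs) against 26028 CPM in the KO-labelled library, log2 ratios of 0.79 [0.75 to 0.83] and 1.25 [1.21 to 1.30]. Nucleus by nucleus, the share of UMIs from Dmd had a lowest value of 2.59%, a median of 3.73% and a highest of 6.68% over the 23 nuclei of the WT-labelled library, against a median of 2.23% in the other myonuclei. Over the 19 nuclei of the KO-labelled library the median was 6.50% and the highest 9.38%, against 2.48%, with 1 nucleus at 0. The ranges of the junctional and other nuclei overlapped in both libraries.

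Sgcd stood at 3279 CPM against 935 CPM in the WT-labelled library and at 4706 CPM against 1345 CPM in the KO-labelled library, a log2 ratio of 1.81 in each ([1.66 to 1.96] and [1.64 to 1.96]). Utrn stood at 283 CPM (34 UMIs) against 88.0 CPM and at 789 CPM (55 UMIs) against 129 CPM, log2 ratios of 1.68 and 2.61, with lower bounds of 1.14 and 2.20. Utrn UMIs were found in 12 of 23 and 17 of 19 junctional nuclei, against 396 of 2384 and 670 of 3066 of the others. Dag1 and Dtna were not past 1.5-fold the same way in both libraries, with log2 ratios of 0.39 [-0.03 to 0.78] and -0.18 [-0.70 to 0.30] for Dag1 and of -0.66 [-1.05 to -0.30] and -0.17 [-0.51 to 0.15] for Dtna. Sgca, Sgcb and Sntb1 gave 7 or fewer UMIs each in the junctional nuclei of a library, and their counting intervals all included a ratio of 1. In the cluster led by Col22a1 (27 and 34 nuclei) Sntb1 stood at 50.9 CPM (6 UMIs) in the WT-labelled library and 532 CPM (66 UMIs) in the KO-labelled library, where a single nucleus held 38 of the 66 UMIs.

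Tenocytes and interstitial cells border this junction, and their markers were measured in the same nuclei. Of the 8 tenocyte markers 1 was detected in the junctional nuclei of the WT-labelled library, with 1 UMI of Thbs4, and none in those of the KO-labelled library, and the 8 markers of fibro-adipogenic progenitors summed to 3 UMIs and 1 UMI. Tnmd and Scx were at 0 in both. The myonuclear markers stood at 63956 and 62116 CPM there, against 74258 and 87493 CPM in the other myonuclei. The synaptic markers used further below summed to 241 CPM there in the WT-labelled library, against 69.8 CPM in the other myonuclei. In the KO-labelled library they summed to 43.0 CPM against 94.2 CPM, and their part in the Utrn levels was not tested. The nucleus with most UMIs held 15.6% and 11.9% of the junctional UMIs, and without it the log2 ratios were 0.74 and 1.29 for Dmd and 1.81 and 1.77 for Sgcd, and 2.63 for Utrn in the KO-labelled library.

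Partner genes at the membrane differed in both directions in the myotendinous nuclei. Lama2, the laminin chain that dystroglycan binds, stood at 12801 CPM against 199.7 CPM in the WT-labelled library and at 22298 CPM against 161 CPM in the KO-labelled library, and the 23 junctional nuclei held 1538 of the 3278 myonuclear Lama2 UMIs of the former. Itgb1, the integrin beta1 chain, stood at 999 CPM against 115 CPM and at 2066 CPM against 144 CPM. Nos1, which encodes a nitric oxide synthase held at the complex, was lower, at 116.5 CPM against 282 CPM and at 14.3 CPM (1 UMI) against 412 CPM. By list, 3 of 4 comparable partners (of 12), 1 of 2 glycosylation genes (of 13) and 3 of 9 cytoskeletal links (of 12) were past 1.5-fold in both libraries, beside 28.5% of all genes.

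**Figure D3:**
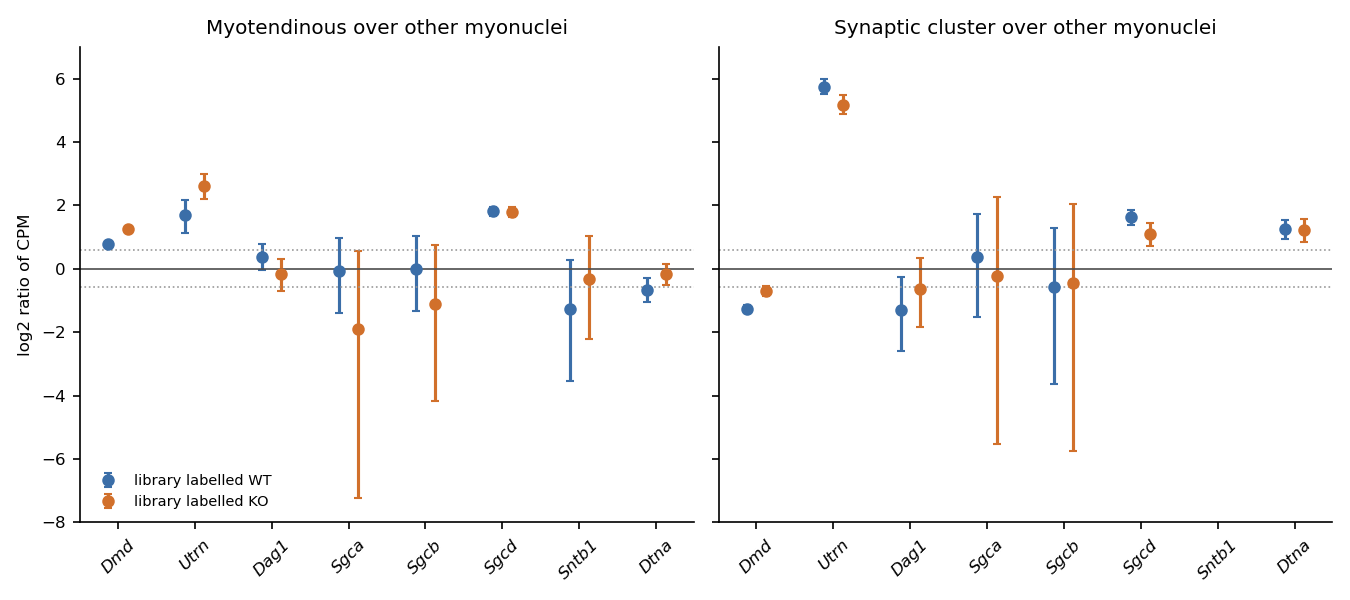
Log2 ratio of CPM (vertical axis) of each member in myotendinous nuclei over the other myonuclei (left; 23 nuclei labelled WT, blue, and 19 labelled KO, orange) and in the cluster of synaptic nuclei over the other myonuclei (right; 15 and 8 nuclei). Bars are exact 95% intervals for counting error, dotted lines mark 1.5-fold and members with 0 UMIs are left out; Sgcd is at 1.81 in both libraries on the left, and Utrn is the highest member on the right.

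At the neuromuscular junction the answer depended on how synaptic nuclei were chosen. Counting at least 3 UMIs over 7 synaptic markers gave 38 nuclei in the WT-labelled library and 86 in the KO-labelled library, but Musk, the kinase that organises the synapse, supplied 201 and 530 of their marker UMIs and only 15 and 8 of them fell in the cluster led by Ano4 and Col25a1, whose 10 leading genes include Colq and Etv5. By that count 1 of 8 members, Utrn, was past 1.5-fold in both libraries, against 4.84% of the 4752 genes tested either way and 1.58% in the higher direction. Utrn stood at 1044 CPM (205 UMIs) against 69.0 CPM in the WT-labelled library and at 439 CPM (182 UMIs) against 120.1 CPM in the KO-labelled library, log2 ratios of 3.92 [3.68 to 4.15] and 1.87 [1.63 to 2.10].

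In the 15 and 8 nuclei of the synaptic cluster, a choice made after the data were seen, the levels were further apart. Utrn stood at 3748 CPM in the WT-labelled library and 4502 CPM in the KO-labelled library, log2 ratios of 5.75 [5.51 to 5.99] and 5.18 [4.87 to 5.48] over the other myonuclei. These nuclei gave a median of 0.477% and 0.451% of their UMIs to Utrn, and all 15 and 7 of 8 held a Utrn UMI. Dmd was lower than elsewhere in the fibre, at 9758 CPM (492 UMIs) and 16172 CPM (352 UMIs), log2 ratios of -1.27 [-1.40 to -1.15] and -0.70 [-0.86 to -0.55]. The summed myonuclear markers were lower there too, at 38932 and 47459 CPM against 74320 and 87399 CPM, log2 ratios of -0.93 and -0.88, and their part in the lower Dmd was not tested. Sgcd stood at 2955 and 2940 CPM and Dtna at 1924 and 2894 CPM, both higher than elsewhere, with log2 ratios of 1.63 [1.38 to 1.86] and 1.11 [0.73 to 1.46] for Sgcd and of 1.25 [0.95 to 1.54] and 1.23 [0.85 to 1.58] for Dtna. Sntb1 had 0 UMIs in both, which allows up to 59.5 CPM and 138 CPM (3 UMIs). With the rule but without Musk, 17 and 13 nuclei gave log2 ratios of 5.51 and 4.49 for Utrn and of -1.05 and -0.73 for Dmd. In the synaptic cluster Dag1 gave 7 and 8 UMIs, with log2 ratios of -1.29 [-2.61 to -0.25] and -0.63 [-1.84 to 0.35]. Its interval in the KO-labelled library includes no difference. Of all genes comparable, 27.8% were past 1.5-fold either way in the synaptic cluster and 18.2% by the rule without Musk. Of the members comparable, 4 of 4 were in the former (Dmd and Dag1 lower, Sgcd and Dtna higher). In the latter 3 of 4 were (Dmd lower, Sgcd and Dtna higher, Dag1 not past it). Utrn is in neither count, because at its level in the other myonuclei fewer than 5 UMIs would be expected in these nuclei.

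Outside the fibres, nearly every member differed from its myonuclear level, in classes where that was true of about as many genes as not. In fibro-adipogenic progenitors (FAP, 483 and 331 nuclei of the WT-labelled and KO-labelled libraries) 8 of 8 members were past 1.5-fold in both libraries, against 51.6% of genes. In endothelial nuclei (224 and 132) 7 were, against 54% of genes, in muscle stem cells (MuSC, 187 and 126) 6, against 47.5%, in pericytes or smooth muscle (158 and 117) 8, against 48.6%, in macrophages (100 and 58) 8, against 54.8%, and in tenocytes (53 and 52) 7, against 45.4%.

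Free RNA released from broken fibres can enter every droplet, so each level was set beside what the myonuclear markers in the same nuclei predict. The markers put the share of UMIs that came from fibres at 2.33% and 3.75% in FAP nuclei, 2.93% and 2.94% in endothelial nuclei, 5.67% and 4.50% in MuSC, 2.38% and 4.39% in pericytes or smooth muscle, 2.69% and 7.42% in macrophages and 10.2% and 8.62% in tenocytes. Dmd in FAP nuclei, at 596 and 1086 CPM, was 1.09 and 1.10 times the prediction, and in tenocytes, at 2434 and 2453 CPM, 1.01 and 1.08 times. A single nucleus held 40.4% and 28.0% of these tenocyte Dmd UMIs, and the median share of UMIs per tenocyte was 0 in the WT-labelled library and 0.042% in that labelled KO. In macrophages Dmd was 1.05 and 0.828 times the prediction, with 42.0% and 51.8% of its UMIs in 1 nucleus and medians of 0.016% and 0.012%, and in endothelial nuclei 1.12 and 0.659 times. In none of these 4 classes was Dmd more than 1.12 times what free fibre RNA predicts.

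In MuSC, the resident stem cells of muscle, Dmd was above that background. It stood at 7496 CPM (2068 UMIs) and 6786 CPM (1301 UMIs), 5.62 [5.38 to 5.87] and 5.74 [5.43 to 6.06] times the prediction. At a thinned depth of 1000 UMIs, which 65 and 39 MuSC did not reach, 97.5% [93.0 to 99.5] and 95.4% [88.6 to 98.7] of MuSC held a Dmd UMI, whereas Ttn, a fibre gene, was found in 53.3% and 60.9% of the same nuclei. In FAP nuclei the shares were 37.4% for Dmd and 44.4% for Ttn in the WT-labelled library, and 41.9% and 48.9% in the KO-labelled library. Median depths were 1255 and 1311.5 UMIs in MuSC and 1960 and 1755 in FAP nuclei. The Dmd level in MuSC was below that of the fibres, by a log2 ratio of -1.65 [-1.71 to -1.59] and -1.95 [-2.03 to -1.88].

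MuSC also had the highest Dag1 of any class, at 1189 CPM (328 UMIs) and 1064 CPM (204 UMIs), log2 ratios of 1.81 [1.64 to 1.98] and 0.91 [0.70 to 1.11] over the myonuclei of the same library. Between the libraries, Dag1 in MuSC gave a log2 ratio of -0.16 [-0.42 to 0.10]. Sgcb in MuSC, at 72.5 and 83.5 CPM, was near its myonuclear level, and Sgcd, at 18.1 and 10.4 CPM (5 and 2 UMIs), was below the free RNA prediction. Dtna stood at 141 CPM (39 UMIs) and 490 CPM (94 UMIs) in MuSC, a log2 ratio between libraries of 1.79 [1.24 to 2.37].

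Utrn was higher outside the fibres than in myonuclei in each of the 6 classes of at least 50 nuclei and in both libraries. It stood at 2008 and 1938 CPM in endothelial nuclei, 1432 and 1647 CPM in pericytes or smooth muscle, 982 and 1101 CPM in MuSC, 975 and 854 CPM in macrophages, 826 and 660 CPM in tenocytes and 778 and 816 CPM in FAP nuclei. The log2 ratios over myonuclei lay between 2.30, in tenocytes of the KO-labelled library, and 4.47, in endothelial nuclei of the WT-labelled library. The counting interval of the endothelial level lay above those of the other 5 classes in the WT-labelled library but overlapped that of pericytes or smooth muscle in the KO-labelled library, and the intervals of macrophages and MuSC overlapped in both. Lymphatic endothelial nuclei (11 and 6), too few for the comparison, gave 2621 CPM [1995 to 3381] and 1892 CPM [1257 to 2734]. Between the libraries, Utrn gave log2 ratios of 0.07 [-0.09 to 0.22] in FAP and -0.05 [-0.21 to 0.11] in endothelial nuclei, and the other 4 classes lay between -0.32 [-0.73 to 0.09], in tenocytes, and 0.20 [0.02 to 0.38], in pericytes or smooth muscle.

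Among the classes outside the fibres, Sntb1 was highest in pericytes or smooth muscle, at 533 CPM (196 UMIs) and 462 CPM (132 UMIs), log2 ratios of 3.16 [2.92 to 3.40] and 2.68 [2.40 to 2.95] over myonuclei. The class held a cluster with Rgs5, a pericyte gene, among its leading genes (147 and 111 nuclei) and one with Acta2 and Myh11, genes of contractile smooth muscle, among them (11 and 6 nuclei), and Sntb1 stood at 543 and 464 CPM in the former and 465 and 434 CPM in the latter. Dmd separated the 2 clusters. It stood at 1096 and 1688 CPM in the pericyte-led cluster and at 12810 CPM (579 UMIs) and 10209 CPM (235 UMIs) in the smooth muscle-led cluster, where all 11 and all 6 nuclei held Dmd UMIs and the median share was 1.20% and 1.19%, although 1 nucleus held 44.0% and 27.2% of these Dmd UMIs. Dtna was also higher in the smooth muscle-led cluster, on few counts. It stood at 9.31 CPM (3 UMIs) and 49.4 CPM (13 UMIs) in the pericyte-led cluster. In the smooth muscle-led cluster it stood at 531 CPM (24 UMIs) and 478 CPM (11 UMIs).

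Sgcd was found outside the fibres in FAP nuclei, at 206 and 195 CPM, and in tenocytes, at 305 and 403 CPM, which is 9.14 [7.99 to 10.4] and 3.80 [3.20 to 4.49] times the free RNA prediction in FAP nuclei and 3.09 and 3.41 times in tenocytes. In macrophages its 14 and 24 UMIs came from 4 nuclei of each library, and a single nucleus held 11 and 18 of them. Sgca gave 5 or fewer UMIs in each of the 6 classes of either library, and 0 in endothelial nuclei, pericytes or smooth muscle and tenocytes of the KO-labelled library and in macrophages of both, which allows up to 25.4 CPM (3 UMIs) in the group with the fewest UMIs. In MuSC it stood at 18.1 and 20.9 CPM (5 and 4 UMIs), 5.22 [1.69 to 12.2] and 8.63 [2.35 to 22.1] times the prediction, wide intervals that rest on few counts.

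**Figure D4:**
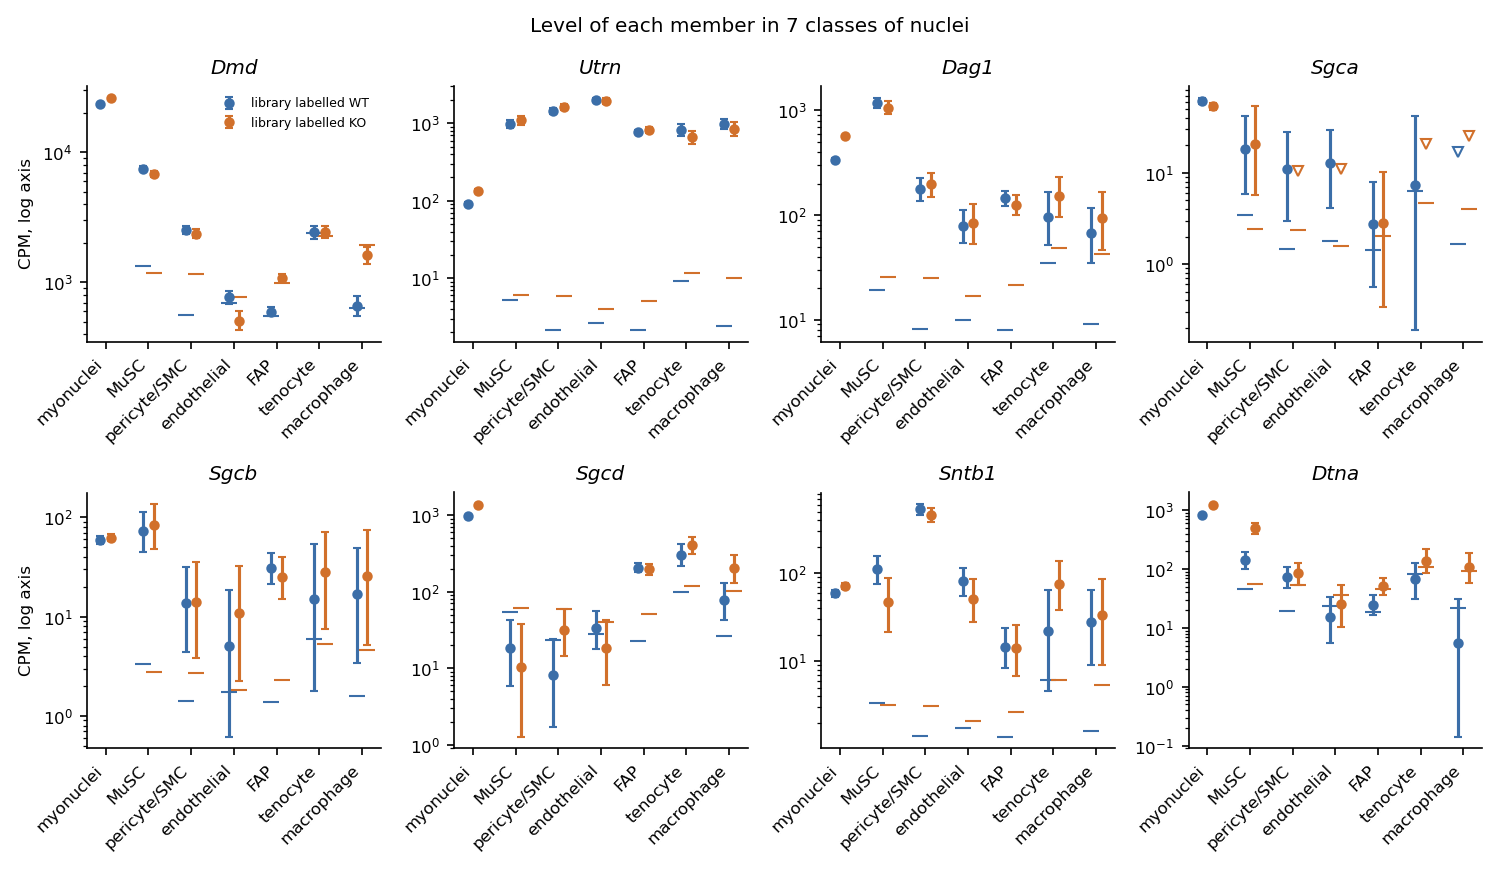
Level of each member in CPM (log axis) in 7 classes of nuclei of the WT-labelled library (blue) and the KO-labelled library (orange); SMC stands for smooth muscle cells. Bars are exact 95% Poisson intervals, short dashes show the level that free fibre RNA predicts and open triangles mark 0 UMIs, drawn at the level of 3 UMIs; Dmd lies near its dashes in FAP nuclei and above them in MuSC, at 7496 and 6786 CPM, and its tenocyte and macrophage points draw 28.0% to 51.8% of their UMIs from 1 nucleus.

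The partners of the complex differed between the libraries in part. Of 12 other subunits and partners 8 had at least 200 UMIs in myonuclei, and 2 were past 1.5-fold, beside 16.6% of all genes either way and 6.8% in the higher direction, both higher in the KO-labelled library: Sgce, which encodes epsilon-sarcoglycan, at 14.0 CPM (124 UMIs) and 45.2 CPM (435 UMIs) with a log2 ratio of 1.69 [1.40 to 1.99], and Cav3, which encodes the caveolin of muscle, at 13.9 CPM (123 UMIs) and 21.0 CPM (202 UMIs) with 0.59 [0.26 to 0.93]. Their median was 0.48. Nos1 stood at 280 and 409 CPM with 0.55 [0.48 to 0.62].

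None of the 6 measurable genes of dystroglycan glycosylation, of 13 listed, was past 1.5-fold, beside 16.6% of all genes, and their median of -0.06 was close to the -0.15 of all genes. Of 12 cytoskeletal links, all measurable, 1 was past 1.5-fold, beside the same 16.6%: Flnc, filamin C, at 561 and 991 CPM with 0.82 [0.77 to 0.87]. The median of this list was 0.01.

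Between Myh4-main and Myh1-main nuclei, 1 of 10 measurable partners was past 1.5-fold higher and 3 lower in Myh4-main nuclei of both libraries, 0 of 10 glycosylation genes either way, and 1 of 12 cytoskeletal links higher and 2 lower, beside 17.7% of all genes either way. The higher genes were Sgce, at 20.3 CPM against 7.95 CPM in the WT-labelled library and 71.6 CPM against 37.4 CPM in the KO-labelled library, and Synm, which encodes the intermediate filament protein synemin, at 78.2 against 35.4 CPM and 97.7 against 41.0 CPM. Among the lower ones, Flnc gave log2 ratios of -0.82 and -0.83. Ank2, an ankyrin gene, stood at 472 CPM against 2483 CPM in the WT-labelled library and 388 CPM against 2961 CPM in the KO-labelled library, and Nos1 gave log2 ratios of -0.78 in the former and -1.41 in the latter.

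Outside the fibres some partners stood higher, and as many or more stood lower. In FAP nuclei 4 of 10 comparable partners were past 1.5-fold higher in both libraries and 4 lower. The higher and lower counts were 2 and 6 of 8 in endothelial nuclei and 1 and 3 of 5 in MuSC. They were 2 and 4 of 6 in pericytes or smooth muscle, 0 and 4 of 4 in macrophages and 1 and 3 of 4 in tenocytes. Of all genes, 45.4% to 54.8% were past it either way. In FAP nuclei Sgce stood at 204 and 268 CPM and Sntb2, which encodes beta2-syntrophin, at 319 and 242 CPM, against 14.0 and 45.2 CPM and 9.28 and 6.55 CPM in myonuclei. Itga7, an integrin chain that binds laminin, stood at 272 and 261 CPM in MuSC and 313 and 357 CPM in pericytes or smooth muscle, against 46.6 and 68.7 CPM in myonuclei. Of the 12 cytoskeletal links, 2 were past 1.5-fold higher and 6 lower in MuSC, and 3 higher and 7 lower in pericytes or smooth muscle. Nos1 was past 1.5-fold lower in all 6 classes of both libraries.

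Across 18 points, 9 kinds of nuclei in each of 2 libraries that share depth and free RNA, the gene most like Dmd among 6018 was Fgf13 (Pearson r = 0.967 of log2(CPM + 1)), followed by Rbm24 (0.967) and Nexn (0.956). Dtna was the member closest to Dmd (r = 0.951), and Utrn ran opposite to it (r = -0.849). The genes most like Utrn were Myef2 (0.958), Zfp36l1 (0.954) and Gnb1 (0.951). These values describe the contrast of fibre and other nuclei, on which the points mainly differ, and carry no test.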

How the data were processed

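Counts of unique molecular identifiers (UMIs) per gene and nucleus were deposited by the authors as filtered matrices for 1 library per genotype, with no normalization. The submitters' processing notes name Cell Ranger 7.0.0, Seurat 5.0.3 and mm10. The labels describe a Multiome library and the study's methods a 3′ kit, and which was used is not settled here.

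Nuclei with 200 to 5000 genes and at most 5% mitochondrial UMIs were kept and doublets removed with Scrublet (scanpy 1.11.5), taking 0.8% per 1000 barcodes, which removed 115 and 134. Seurat 5.3.0 clustered the nuclei by RPCA integration (2000 variable genes, 30 components, resolution 0.5), leaving out 440 genes, the listed ones and those at least 2-fold apart between the libraries in provisional myonuclei. Clusters were named from marker lists, and clusters without their markers stayed unnamed. UMIs were summed per library and group and divided by the group's total (CPM). Intervals are exact: Poisson for levels, Clopper-Pearson for shares and conditional on the total for ratios, and they cover counting error only. A gene was compared within libraries where at least 5 UMIs were expected in the smaller group of each. The computation was tested on simulated data. Group, fibre type and junction rules follow the text, and alternatives are given in the closing section. The members, lists and rules were chosen with earlier results of these data known. Some listed genes are not reported here by name.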

Additional observations from a re-analysis of the deposited data

How the results depend on the processing

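With 1 library per genotype no replicate could be left out, and no test across libraries was possible. No paired analysis was possible because each group has 1 library and no test was made. With TMM (edgeR 4.0.16) or median-of-ratios scaling, under which the libraries' scales differ by -0.12 on the log2 scale in each case, the median log2 ratio of the 8 members between libraries was 0.50 and 0.51 rather than 0.39, and 4 members rather than 2 were past 1.5-fold, Utrn and Sgcd being added, beside 15.2% of all genes under either scaling. Averaging CPM over nuclei instead of summing left 1 member past 1.5-fold between the libraries, Dag1, with Dtna at 0.58 (16.9% of all genes), gave 1 between Myh4-main and Myh1-main nuclei (18.1%) and 2 between synaptic and other myonuclei (6.78%), and put Sntb1 in myotendinous over other myonuclei of the WT-labelled library at 0.38 instead of -1.27, on 3 UMIs. Asking for a main Myh gene with at least 3 UMIs and at least 2 in 3 of the Myh UMIs gave 2 members between Myh4-main and Myh1-main nuclei, beside 19.2% of all genes. Taking every nucleus with at least 3 Col22a1 UMIs, whatever its cluster, gave 6 members at the myotendinous junction, beside 31.3%. After the data were seen, the synaptic cluster gave 6 members and the rule without Musk 5, beside 27.8% and 18.2% of the genes above the count minimum. These member counts include members below that minimum, among them Sntb1 at 0 UMIs in both. Of members above a minimum set by the level in the other myonuclei, 4 of 4 and 3 of 4 were past 1.5-fold, beside 27.9% and 18.2% of genes. With that minimum the counts of 3 at the myotendinous junction and 1 by the synaptic rule were the same, beside 28.4% and 4.81%. The causes of these changes were not tested. The other 44 values of such counts and medians stayed within 1.5 times or within their counting interval, including those without doublet removal and, for the classes outside the fibres, the subtraction of free RNA. Of the values for single members, 452 stayed within their counting interval, 125 moved beyond it and 1, the Sntb1 ratio above, changed sign.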
